A study of Mus musculus with 6 samples.

Results

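The genes described here are the brakes of the cell cycle in mouse pancreatic islets: 7 cyclin-dependent kinase (CDK) inhibitor genes, the p53 gene Trp53, its antagonist Mdm2 and the menin gene Men1. These 10 genes were listed by name, with no threshold on a measured value but with earlier results of these data known, and all 10 were found in the table of 55536 genes. Polyadenylated RNA of whole isolated islets was sequenced from mice of strain C57B1/6J, 3 libraries with genotype Klf4+/+;Gcg-iCre (control) and 3 with genotype Klf4fl/fl;Gcg-iCre (knockout). Both groups carried Gcg-iCre, in which the glucagon gene drives Cre recombinase. By this design floxed Klf4 is to be deleted in alpha cells. It is to stay intact in the beta, delta and non-endocrine cells that share the islet. The labels give no treatment, age or sex and do not say whether the libraries come from separate animals, so p-values measure only the spread between these samples. In whole islets, fewer cells of a type and less RNA per cell cannot be told apart.

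CDK inhibitors hold cells in G1. The CIP/KIP proteins p21 (Cdkn1a), p27 (Cdkn1b) and p57 (Cdkn1c) bind cyclin-CDK complexes, whereas the INK4 proteins p16 (Cdkn2a), p15 (Cdkn2b), p18 (Cdkn2c) and p19 (Cdkn2d) bind CDK4 and CDK6. p53 switches on Cdkn1a and Mdm2, MDM2 marks p53 for degradation, and the ARF protein, made from another first exon of Cdkn2a, blocks MDM2. In islets, menin works with histone methyltransferases of the MLL family to keep Cdkn1b and Cdkn2c active, loss of menin leads to endocrine tumours, and Cdkn2a is known to increase with age. KLF4 is a zinc finger factor that binds CACCC-type elements; in other cell types it is known to activate Cdkn1a and to repress Trp53, which is why both are of interest when Klf4 is deleted.

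The DNA just before the transcription starts of 4 genes is shown, because Cdkn1a and Trp53 are known KLF4-responsive genes and because Cdkn2a and Cdkn2b are the genes that set 1 library apart below. Each line gives 250 bases before a RefSeq start in GRCm38.p6, 5′ to 3′ on the gene's strand, and capitals mark CACCC or its reverse complement GGGTG. The 2 Cdkn2a starts belong to the ARF transcript (the distal start) and the p16 transcript (the proximal start).
Cdkn1a, distal start, chr17:29090729-29090978, plus strand: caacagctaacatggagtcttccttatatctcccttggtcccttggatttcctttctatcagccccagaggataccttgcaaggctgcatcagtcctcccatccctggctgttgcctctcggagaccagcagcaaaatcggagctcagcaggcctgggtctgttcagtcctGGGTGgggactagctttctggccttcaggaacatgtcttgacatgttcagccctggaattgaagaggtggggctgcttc
Cdkn1a, proximal start, chr17:29093519-29093768, plus strand: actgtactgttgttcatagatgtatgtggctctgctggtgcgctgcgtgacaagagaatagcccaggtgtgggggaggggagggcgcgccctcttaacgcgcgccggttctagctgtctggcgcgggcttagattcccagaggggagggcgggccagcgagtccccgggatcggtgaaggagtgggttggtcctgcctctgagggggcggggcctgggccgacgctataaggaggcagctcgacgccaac
Trp53, chr11:69580109-69580358, plus strand: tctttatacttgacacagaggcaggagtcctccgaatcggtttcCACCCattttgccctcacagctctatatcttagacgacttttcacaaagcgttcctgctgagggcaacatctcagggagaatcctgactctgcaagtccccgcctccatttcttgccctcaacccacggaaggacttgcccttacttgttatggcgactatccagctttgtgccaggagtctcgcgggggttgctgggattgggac
Cdkn2a, ARF start, chr4:89294620-89294869, minus strand: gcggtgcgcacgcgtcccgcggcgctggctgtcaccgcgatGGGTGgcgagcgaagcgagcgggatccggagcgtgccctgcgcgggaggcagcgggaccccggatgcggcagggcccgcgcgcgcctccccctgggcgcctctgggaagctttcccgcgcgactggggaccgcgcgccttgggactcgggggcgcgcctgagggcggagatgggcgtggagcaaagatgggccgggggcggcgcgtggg
Cdkn2a, p16 start, chr4:89282193-89282442, minus strand: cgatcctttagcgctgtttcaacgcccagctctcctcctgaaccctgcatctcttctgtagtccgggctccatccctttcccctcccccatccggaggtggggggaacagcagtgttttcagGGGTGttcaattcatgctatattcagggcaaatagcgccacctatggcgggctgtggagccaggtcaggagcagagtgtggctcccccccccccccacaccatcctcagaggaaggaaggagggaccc
Cdkn2b, chr4:89311033-89311282, minus strand: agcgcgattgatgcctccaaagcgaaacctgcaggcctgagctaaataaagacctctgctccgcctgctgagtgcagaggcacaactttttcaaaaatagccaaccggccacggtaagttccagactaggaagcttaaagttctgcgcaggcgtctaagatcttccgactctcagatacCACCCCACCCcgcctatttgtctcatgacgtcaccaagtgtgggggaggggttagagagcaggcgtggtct
Of the 10 genes, 9 were matched by symbol to the RefSeq table, with 14 start windows, those of Men1 overlapping each other. CACCC on either strand was found in 11 of the 14 windows, against 52.0% of all 32817 windows of that length. The Men1 windows share 1 match, which is counted in each of them. By gene, 7 of the 9 held a match. The distal Cdkn1a window held 1 match and the proximal window none, the Trp53 window and both Cdkn2a windows held 1 each, and the Cdkn2b window held 2 side by side. The GC box GGGCGG, searched on both strands with overlaps to CACCC allowed, was found in 9 of the 14 windows, against 32.7% of all windows. Here too the Men1 windows share 1 match. A match describes letters only and is not a binding site.

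Several facts of the whole series bear on these genes. Libraries held 101277200 to 110243918 counts. Klf4 itself was at 2015 to 3148 normalized counts in controls and 2277 to 2540 in knockouts (log2 fold change -0.17 ± 0.15 SE, DESeq2 adjusted p = 0.774), so the ranges overlapped. It passed without control replicate 3 alone (-0.34, DESeq2 adjusted p = 0.00568). These whole-islet counts thus do not by themselves show the loss of Klf4 in alpha cells. Sex-linked transcripts followed genotype: Xist was at 12.4 to 30.2 normalized counts in the knockouts against 77938 to 108105 in controls, so sex and genotype cannot be told apart in any difference below. The alpha-cell gene Gcg was abundant in every library and lower in the knockouts (log2 fold change -0.56 ± 0.13 SE, DESeq2 adjusted p = 0.00332), but did not pass in edgeR (adjusted p = 0.402) or without knockout replicate 1 (0.144) or knockout replicate 3 (0.0826). The 7 acinar genes together were at 471653 to 952915 normalized counts in controls and 1183340 to 1687720 in knockouts, the 9 mesenchymal genes at 83838 to 96859 and 125620 to 131116, and the 12 glucocorticoid-induced genes at 84345 to 93714 and 105811 to 112450. Within these sums, 0 of 7 acinar, 2 of 9 mesenchymal and 3 of 12 glucocorticoid-induced genes had a negative log2 fold change. Among marker lists, 5 of 9 mesenchymal, 2 of 7 myeloid, 1 of 6 duct and 6 of 12 glucocorticoid-induced genes passed as higher in DESeq2 (1.53% of all genes), 4 of 12 alpha and 1 of 13 beta genes as lower (0.657% of all genes), and 0 of the delta, endothelial, lymphoid, acinar and Schwann genes passed. edgeR, which called 0.115% of all genes, gave 3 mesenchymal, 2 glucocorticoid-induced and 0 alpha, beta, myeloid and duct genes. Single libraries decided several of these counts: all 7 acinar genes passed without control replicate 2; alpha gave 1 gene without control replicate 2 and 0 without knockout replicate 1 or 3; beta gave 0 without control replicate 2 or knockout replicate 1 or 3, and 2 without control replicate 3; myeloid gave 1 without control replicate 1 or 2, 0 without knockout replicate 1 or 3, and 3 without knockout replicate 2; duct gave 0 without control replicate 1 or 2 or knockout replicate 1 or 3. Delta gave 1 without knockout replicate 2 and Schwann 1 without control replicate 3. Without each library in turn, mesenchymal gave 5 or 6 and glucocorticoid-induced 4 to 6. Knockout replicate 1 lay at least 4-fold above all other libraries for 89 of 15811 well-expressed genes (mean normalized count 50 or more), against 0 to 5 genes for each other library. Control replicate 3 lay at least 2-fold below all others for 73 genes and control replicate 1 for 40, against 5 to 18 for each other library.

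Across the transcriptome, 2.19% of the 17797 genes given an adjusted p passed 0.05 in DESeq2 (1.53% higher and 0.657% lower in knockouts) and 0.115% of 25210 in edgeR. None of the 10 genes passed in either test: 9 of the 10 were given an adjusted p in DESeq2, 5 of the 10 log2 fold changes were positive and 5 negative, and their median was -0.01, as it was over the 15811 well-expressed genes. At an unadjusted p under 0.05, DESeq2 gave 2 of the 10 (Cdkn1a and Trp53; 9.03% of all genes) and edgeR 2 (Trp53 and Cdkn2a; 9.48% of all genes). The count past the threshold also stayed at 0 when each of the 6 libraries was left out in turn. The genes differed in level, in scatter between libraries and in how narrowly the interval bounded a genotype difference.

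**Figure D1:**
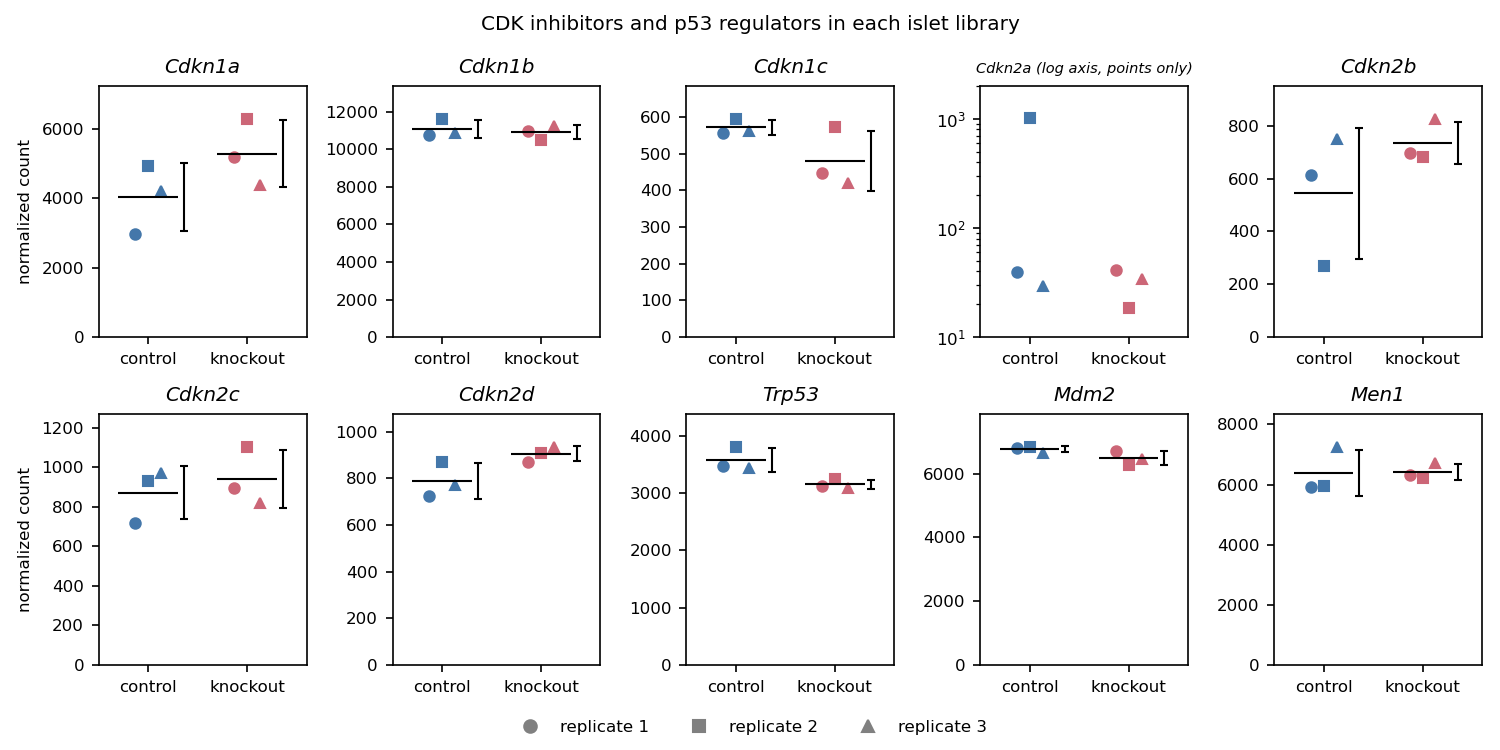
Normalized counts (y axis, read counts divided by the DESeq2 size factor) of the 10 genes in the 3 control (blue) and 3 knockout (red) libraries, with the symbol giving the replicate, a line at each group mean and bars of 1 SD. Cdkn2a is on a log axis without means. Control replicate 2 (blue square) was at 1026 for Cdkn2a, where the other 5 libraries were at 18.6 to 41.6, and had the lowest Cdkn2b value, 269.

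Levels per length put the genes in order. Normalized counts were scaled to CPM (by the mean library total) and divided by the kilobases of annotated exon, so that genes of different length can be compared. Cdkn1b (p27) was the most abundant of the 10, at 23.0 ± 0.81 (SD, n = 6), and its range lay above that of every other gene with exon length as the divisor. Men1 followed at 15.9 ± 1.27 and did not overlap Mdm2, at 12.4 ± 0.41. Cdkn1a, at 12.5 ± 2.97, could not be ordered against Men1, Mdm2 or Trp53 (7.94 ± 0.64), since its range of 8.003 to 16.9 overlapped all 3. Trp53 in turn lay above the range of Cdkn2d.

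The INK4 genes and Cdkn1c were lower. Cdkn2d was at 5.13 ± 0.50, Cdkn2b at a median of 4.73, Cdkn2c at 3.22 ± 0.47 and Cdkn1c at 2.46 ± 0.34 CPM per kilobase, and neighbours in this order overlapped. Cdkn2a was last, with a median of 0.30, but its single high library reached 8.35, the level of Trp53. Without control replicate 2, 5 of the 9 neighbouring pairs had ranges that did not overlap, in place of 3. With the longest annotated transcript as length, Cdkn1a moved up to the second place, at a median of 21.3, and Men1 down to the fourth. The ranges of Cdkn1a (13.7 to 28.9) and Men1 (18.8 to 23.1) then reached into that of Cdkn1b, which kept the highest median but was no longer separate.

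**Figure D2:**
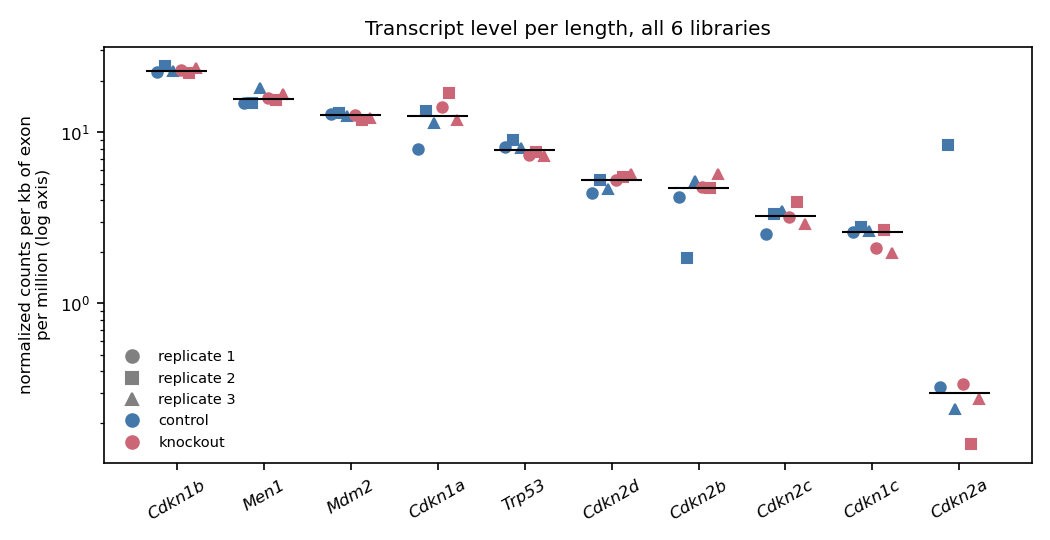
Normalized counts in CPM per kilobase of exon (y axis, log axis) of the 10 genes in the 3 control (blue) and 3 knockout (red) libraries, ordered by the median over the 6 libraries (line). Cdkn1b stood highest, with a median of 22.9, and Cdkn2a lowest with a median of 0.30 and control replicate 2 at 8.35.

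Among the CIP/KIP genes, Cdkn1a showed the largest difference in mean. Cdkn1a (ENSMUSG00000023067, chromosome 17, 29090976 to 29100727, plus strand, GRCm38) was at 2981, 4918 and 4211 normalized counts in the controls (replicates 1, 2 and 3) and at 5195, 6293 and 4375 in the knockouts. The highest control lay above the lowest knockout, so the groups overlapped. The fold change was a 31.0% higher level in knockouts with a 95% interval of 4.22% to 64.6% (log2 fold change 0.39 ± 0.17 SE), and it did not pass over all genes (DESeq2 adjusted p = 0.286, edgeR adjusted p = 0.549). Its sign was positive under all 13 alternatives, with log2 values of 0.21 without control replicate 1 and 0.56 without control replicate 2. The adjusted p ran from 0.125 to 0.794 over the 12 other than the replicate block, which gave 0.0645.

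The library with the most Cdkn1a, knockout replicate 2, also held the most acinar RNA. Summed over 7 acinar genes, the controls had 499752, 952915 and 471653 normalized counts and the knockouts 1298310, 1687720 and 1183340. In both groups the library highest in acinar RNA was also highest in Cdkn1a, and the knockouts had the same order in both. Other ranks differed. Control replicate 3 had the least acinar RNA, but control replicate 1 had the least Cdkn1a (2981 against 4211 normalized counts). Knockout replicate 3 had more acinar RNA than control replicate 2 but less Cdkn1a (4375 against 4918). The part of acinar RNA in the Cdkn1a difference was not tested. Cdkn1a overlaps an annotated gene on the opposite strand over 273 bases of exon, but that gene held at most 18.6 normalized counts.

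The genes most like Cdkn1a over the 6 libraries among the well-expressed genes were Uevld, Tmem97 and Plekhh3, with Pearson correlations of 0.996, 0.988 and 0.986 of log2 counts. These are descriptions over 6 points that share the genotype split and the acinar content, and 18 genes exceeded 0.95. Tmem97, for example, was at 1242, 1694 and 1522 normalized counts in controls and 1770, 1933 and 1654 in knockouts. None of the 3 genes passed the threshold (DESeq2 adjusted p = 0.878, 0.396 and 0.842).

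Cdkn1b, the inhibitor that menin keeps active in islets, was level. Cdkn1b (ENSMUSG00000003031, chromosome 6, 134920401 to 134925513, plus strand) was at 10768, 11617 and 10863 normalized counts in controls and 10975, 10497 and 11220 in knockouts. The 6 libraries lay within a coefficient of variation of 3.54%, and the groups overlapped. The log2 fold change was -0.02 ± 0.07 (SE, DESeq2 adjusted p = 0.961), with a 95% interval from -10.5% to 8.07%. A change of 31.0% like the Cdkn1a point estimate lay outside the interval.

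Cdkn1c, an imprinted gene that is expressed from the maternal allele, was the scarcest of the CIP/KIP genes. Cdkn1c (ENSMUSG00000037664, chromosome 7, 143458339 to 143461050, minus strand) was at 557, 595 and 562 normalized counts in controls and at 448, 573 and 419 in knockouts. Knockout replicates 1 and 3 lay below every control, while knockout replicate 2 lay among them. A log2 difference of -0.25 ± 0.16 (SE) did not pass (DESeq2 adjusted p = 0.587), and its interval ran from -32.2% to 3.90%. An antisense gene overlaps Cdkn1c over 625 bases of exon and held at most 4.96 normalized counts.

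Among the INK4 genes, Cdkn2a set 1 library apart. Cdkn2a (ENSMUSG00000044303, chromosome 4, 89274471 to 89294653, minus strand) was at 39.7 normalized counts in control replicate 1, 1026 in control replicate 2 and 29.7 in control replicate 3. Knockout replicates 1 to 3 were at 41.6, 18.6 and 33.9. Control replicate 2 was 24.7 times above the highest of the other 5 libraries, whereas those 5 overlapped between the genotypes. In reads, control replicate 2 held 1069 (exact Poisson 95% interval 1006 to 1135) and the next library 44 (32.0 to 59.1). These intervals cover counting error only.

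Cdkn2b, which lies next to Cdkn2a, was lowest in the same library. Cdkn2b (chromosome 4, 89306299 to 89311039, minus strand) was at 612, 269 and 751 normalized counts in the controls and at 696, 683 and 826 in the knockouts. Control replicate 2 thus held 43.9% of the lowest other library, and its 280 reads (exact Poisson 95% interval 248 to 315) lay well under the 617 (569 to 668) of the next. Reads of Cdkn2a outnumbered those of Cdkn2b 3.82 to 1 in control replicate 2, while in the other 5 libraries the ratio was 0.0272 to 0.0648. Cdkn2b thus had more reads than Cdkn2a in 5 libraries and fewer in 1. Cdkn2b carries the identifier ENSMUSG00000073802.

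The coding genes on either side did not share this pattern. Mtap, which encodes an enzyme of methionine salvage and is the nearest coding gene on the other side of Cdkn2a, was at 1779 normalized counts in control replicate 2 and 1676 to 2225 in the other 5 libraries. Klhl9, farther out, was at 13066 against 11377 to 14114, and Dmrta1, beyond Cdkn2b, at 26.9 against 13.2 to 28.9. The non-coding genes Gm12609 and Gm12610, beyond Cdkn2b, were highest in control replicate 2 as well, at 29.8 against 1.89 to 9.98 and at 60.5 against 4.72 to 37.7, but rest on few reads. On the other side of Cdkn2a, the non-coding gene AL805899.1 was also highest there, at 137 against 42.4 to 107. Gm13274, farther out on that side, was at 0 against 0 to 13.2.

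**Figure D3:**
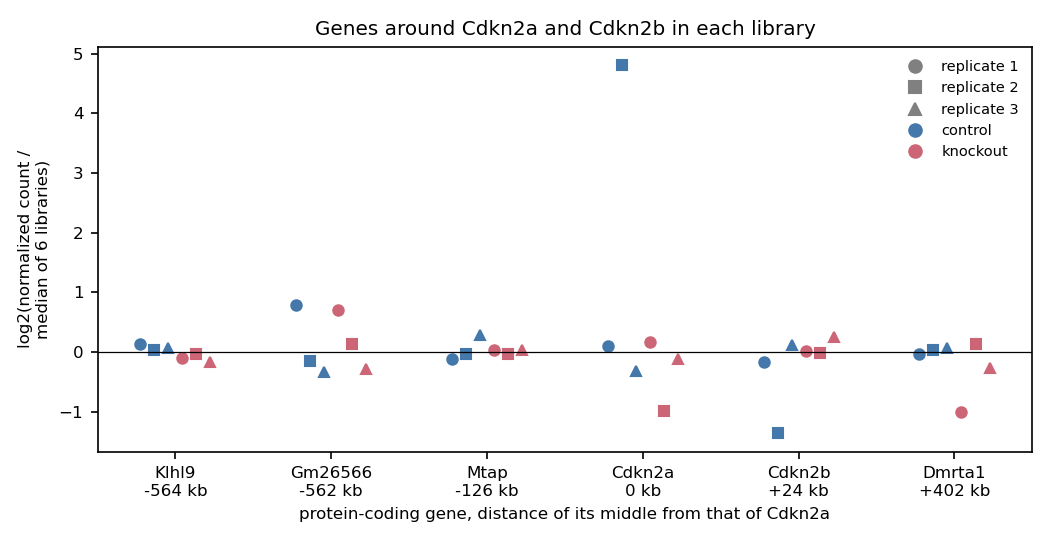
Log2 of the normalized count over the median of the 6 libraries (y axis) for protein-coding genes around Cdkn2a and Cdkn2b, labelled with the distance of their middle from that of Cdkn2a; blue marks control, red knockout libraries. Control replicate 2 (blue square) was far above the rest at Cdkn2a, at 1026 against at most 41.6, and below the rest at Cdkn2b, at 269 against at least 612, and lay among the others at Klhl9, Mtap and Dmrta1.

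Other genes that set that library apart were counted as well. By a rule chosen after these values were seen, control replicate 2 lay at least 4-fold above all 5 others for 5 of 15811 genes (0.0316%) and at least 2-fold below all of them for 8 (0.0506%). Cdkn2a was the only protein-coding gene among the 5, the others being Gm48837, the histone pseudogene Hist1h2al, Gm42743 and Gm13736, and Cdkn2b was among the 8. The Polycomb genes, which keep Cdkn2a repressed, summed to 50135 normalized counts in control replicate 2 and 51373 and 46019 in controls 1 and 3. Gene-level counts do not show whether the p16 or the ARF transcript was raised.

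The genotype comparison of both genes rests on that library. DESeq2 gave Cdkn2a a log2 fold change of -3.54 ± 1.44 (SE) but no p-value, because its filter on outlying libraries (Cook's distance) removed it. edgeR gave an adjusted p of 0.406, and DESeq2 without that filter gave 0.225. Without control replicate 2 the log2 fold change was -0.14 (95% interval -1.295 to 1.01, DESeq2 adjusted p = 0.996). For Cdkn2b it was 0.43 ± 0.43 (SE, DESeq2 adjusted p = 0.817) with all libraries and 0.11 without control replicate 2 (adjusted p = 0.965). The remaining 5 libraries thus placed the Cdkn2b difference between -0.22 and 0.44 on the log2 scale.

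The other INK4 genes overlapped or only touched between genotypes. Cdkn2c (ENSMUSG00000028551), the p18 gene that menin also keeps active (chromosome 4, 109660876 to 109667189, minus strand), was at 717, 929 and 970 normalized counts in controls and 897, 1106 and 820 in knockouts. Its log2 fold change was 0.11 ± 0.16 (SE, DESeq2 adjusted p = 0.906) and turned to -0.01 and -0.02 without control replicate 1 or knockout replicate 2. Cdkn2d (ENSMUSG00000096472), the p19 gene (chromosome 9, 21288410 to 21291407, minus strand), was at 724, 872 and 770 in controls and 872, 908 and 937 in knockouts, so that the highest control and the lowest knockout were level. Its log2 fold change of 0.20 ± 0.12 (SE) did not pass (DESeq2 adjusted p = 0.565).

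**Figure D4:**
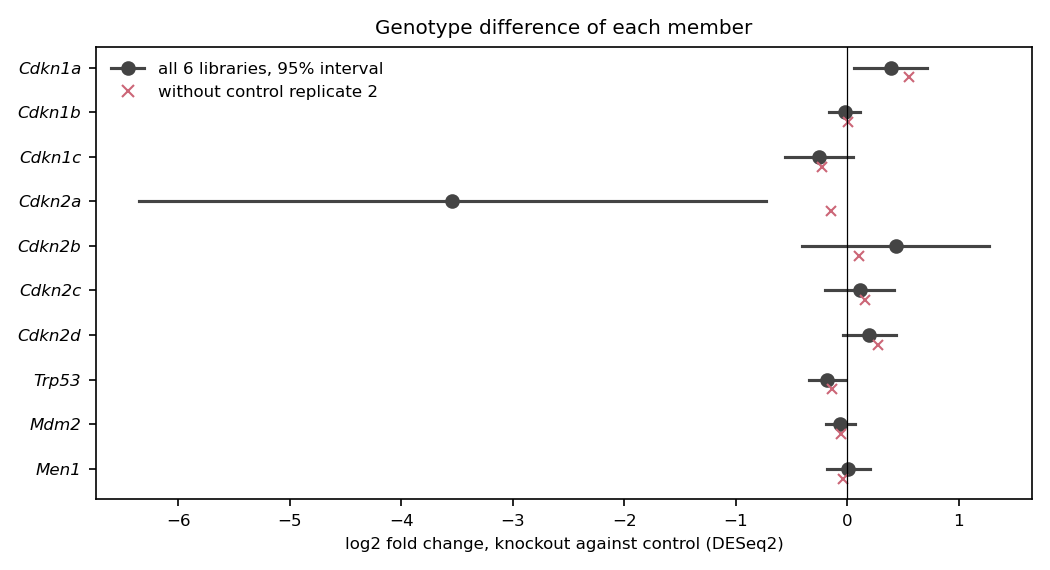
Log2 fold change of knockout against control (x axis, DESeq2) for the 10 genes with all 6 libraries (points, with 95% intervals) and without control replicate 2 (crosses). Cdkn2a moved from -3.54 to -0.14 when that library was left out, and Cdkn2b from 0.43 to 0.11, while Cdkn1b, Mdm2 and Men1 stayed near 0.

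Trp53 was lower in each knockout. Trp53 (ENSMUSG00000059552, chromosome 11, 69580359 to 69591873, plus strand) was at 3481, 3817 and 3433 normalized counts in controls and at 3121, 3252 and 3088 in knockouts. Every knockout lay below every control. Groups also did not overlap for 18.0% of the 15811 well-expressed genes, 8.54% of them in this direction, so 2 of 10 genes (Trp53, and Cdkn2d by under 1 count) is near the background. The log2 fold change was -0.18 ± 0.08 (SE), a change of -11.9% with a 95% interval of -21.1% to -1.59%, and did not pass over all genes (DESeq2 adjusted p = 0.315, edgeR adjusted p = 0.422). Over 12 alternatives the adjusted p ran from 0.0839 to 0.796, and the sign was negative in all of them.

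Mdm2, both a target and the antagonist of p53, was steady. Mdm2 (ENSMUSG00000020184, chromosome 10, 117688875 to 117710758, minus strand) was at 6797, 6847 and 6652 normalized counts in controls and 6712, 6272 and 6460 in knockouts. Its coefficient of variation over the 6 libraries, 3.30%, was the lowest of the 10 genes. On the log2 scale the knockouts differed by -0.06 ± 0.07 (SE; 95% interval -0.19 to 0.07), with an adjusted p of 0.840 in DESeq2. Cdkn1a, the other classical p53 target here, varied by 23.7% over the same libraries.

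Men1 did not separate the genotypes either. Men1 (ENSMUSG00000024947, chromosome 19, 6334979 to 6340891, plus strand) was at 5930, 5947 and 7267 normalized counts in controls and 6333, 6226 and 6711 in knockouts. Control replicate 3 was the highest of all 6 libraries, and the other controls were the lowest. The log2 fold change was 0.01 ± 0.10 (SE, DESeq2 adjusted p = 0.991), with an interval from -11.8% to 14.9%. Prolactin signalling is known to lower Men1 in islets during pregnancy; the 7 prolactin-induced genes had a median log2 fold change of -0.68, and 2 of the 6 given an adjusted p passed as lower (0.657% of all genes). Cish fell by 1.85 and Socs2 by 1.12 on the log2 scale (DESeq2 adjusted p = 0.000377 and 0.0279), and neither passed in edgeR (0.0553 and 0.172). All 7 fold changes were negative, but without control replicate 3 those of Prlr, the prolactin receptor gene, and Tph2 turned positive (0.29 and 0.73). Tph1, which encodes an enzyme of serotonin synthesis, was at 17.9, 13.4 and 225 normalized counts in controls and 3.78, 6.19 and 2.00 in knockouts. Its log2 fold change was -4.42 with all libraries, with no p from DESeq2, and -1.97 without control replicate 3; the adjusted p was 0.000777 without Cook's distance filter and 0.288 in edgeR. Socs2 did not pass without control replicate 1 (adjusted p = 0.127), control replicate 3 (0.0924), knockout replicate 1 (0.294) or knockout replicate 3 (0.158), and the list gave 1 to 3 genes when single libraries were left out, 1 without knockout replicate 1.

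The surrounding pathway was then counted by list. Of 30 other p53-induced genes, 1 passed in DESeq2, near the 2.19% of all genes, 29 did not, and the median log2 fold change was 0.03. The gene that passed was Fas, which encodes a death receptor, at 407, 346 and 367 normalized counts in controls and 576, 563 and 514 in knockouts. Fas rose by 0.56 ± 0.14 on the log2 scale (SE, DESeq2 adjusted p = 0.00813). In edgeR the log2 fold change was 0.57 and did not pass (adjusted p = 0.210), nor did 0.51 without control replicate 2 (0.0541) or 0.53 without knockout replicate 1 (0.146). The list gave 3 genes without control replicate 3, 2 without control replicate 1 and 0 without control replicate 2 or knockout replicate 1, where all genes gave 952, 412, 332 and 153 calls in place of 389.

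Of 22 kinases, ubiquitin-system genes and cofactors that act on p53, 21 were fitted and none passed, with a median of -0.01. At an unadjusted p under 0.05 there were 0 in DESeq2 (9.03% of all genes) and 0 in edgeR (9.48% of all genes). The smallest unadjusted p belonged to the checkpoint kinase gene Chek2 (log2 fold change 0.46 ± 0.28 SE, DESeq2 adjusted p = 0.572) and to Rpl5, a ribosomal protein gene whose product binds MDM2 (-0.12 ± 0.08, adjusted p = 0.632). None of 9 menin partner genes passed in DESeq2 or edgeR, and 0 had an unadjusted p under 0.05 in either; Jund, at -0.14 ± 0.08, and Wdr5, at -0.07 ± 0.08, came closest. Of 13 Polycomb genes none passed in either test. An unadjusted p under 0.05 was reached by 2 of 13 in each (9.03% of all genes in DESeq2 and 9.48% in edgeR). These were Jarid2 (-0.23 ± 0.07, DESeq2 adjusted p = 0.0575) and Cbx2 (0.34 ± 0.13, adjusted p = 0.203), and Jarid2 passed without control replicate 3 (adjusted p = 0.0016).

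Downstream of the inhibitors, 1 of 19 cyclin, CDK, RB and E2F genes passed (2.19% of all genes). Cdk6, a kinase that INK4 proteins inhibit, was at 559, 478 and 426 normalized counts in controls and 771, 726 and 714 in knockouts. Every knockout lay above every control, and Cdk6 rose by 0.59 ± 0.14 (log2, SE, DESeq2 adjusted p = 0.00333). In edgeR the log2 fold change was 0.60 and did not pass (adjusted p = 0.202), nor did 0.56 without knockout replicate 1 (0.0963). The list's median was 0.01, and E2f1 passed as well without control replicate 3 (0.26, adjusted p = 0.0272).

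The next list held 10 genes: those of the SCF ubiquitin ligase, which degrades p27, the FoxO factors, and Foxm1, a transcription factor of mitotic genes. Of these 1 passed (2.19% of all genes), with a median of 0.01: the SCF adaptor gene Skp1a fell by 0.22 ± 0.07 (DESeq2 adjusted p = 0.0461). In the list 6 log2 fold changes were positive and 4 negative. An unadjusted p under 0.05 was reached by 4 of 10 in DESeq2 (9.03% of all genes) and 5 of 10 in edgeR (9.48% of all genes). Groups did not overlap for 4 of 10 (18.0% of the well-expressed genes). Skp1a did not pass in edgeR (adjusted p = 0.261), or without control replicate 2 (0.0779) or knockout replicates 1 to 3 (0.393, 0.0582 and 0.127), nor with other filters on low counts. Other genes of the list passed when a control was left out: Foxm1 (0.64, adjusted p = 0.00487) and Foxo3 (-0.45, 0.0266) without control replicate 2, and Foxo1 (0.16, 0.0484) without control replicate 3. With all libraries Foxm1 was at 315, 417 and 320 normalized counts in controls and 525, 478 and 481 in knockouts (log2 fold change 0.49 ± 0.17 SE, DESeq2 adjusted p = 0.0873, edgeR adjusted p = 0.347).

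Transcripts of dividing cells were counted last. Of 16 such genes, 14 had a positive log2 fold change, and the median was 0.50 against -0.01 over the well-expressed genes. Groups did not overlap for 9 of 16 (18.0% of the well-expressed genes). In DESeq2 2 passed (2.19% of all genes) and in edgeR 0 (0.115% of all genes). An unadjusted p under 0.05 was reached by 9 of 16 in each test (9.03% of all genes in DESeq2 and 9.48% in edgeR). Pcna, Mcm2 and Mcm5, which act in DNA replication, were at -0.02 ± 0.11, 0.10 ± 0.16 and -0.05 ± 0.22 on the log2 scale (SE). Mki67, the proliferation marker, was at 1176, 1446 and 1895 normalized counts in controls and 2410, 2341 and 2191 in knockouts, and rose by 0.62 ± 0.15 (log2, SE, DESeq2 adjusted p = 0.00503). Top2a, a topoisomerase of dividing cells, was at 669, 833 and 1292 in controls and 1583, 1394 and 1596 in knockouts, and rose by 0.71 ± 0.20 (adjusted p = 0.0200). For both genes every knockout lay above every control. In edgeR their log2 fold changes were 0.62 and 0.71, with adjusted p of 0.234 and 0.331.

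These calls changed with single libraries. Mki67 did not pass without control replicate 2 (adjusted p = 0.0930), knockout replicate 1 (0.137) or knockout replicate 2 (0.0673), and Top2a did not pass without control replicate 1 (0.142), control replicate 2 (0.253), knockout replicate 1 (0.258), knockout replicate 2 (0.0792) or knockout replicate 3 (0.210). The list gave 5 genes without control replicate 3, 1 without control replicate 1 or knockout replicate 3, and 0 without control replicate 2, knockout replicate 1 or knockout replicate 2. Calls over all genes were 952 without control replicate 3, 153 without knockout replicate 1 and 318 to 412 without each other library. Mesenchymal, acinar and glucocorticoid-induced RNA lay higher in the same 3 knockout libraries, with the sums given above, and their part in the Mki67 and Top2a differences was not tested.

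**Figure D5:**
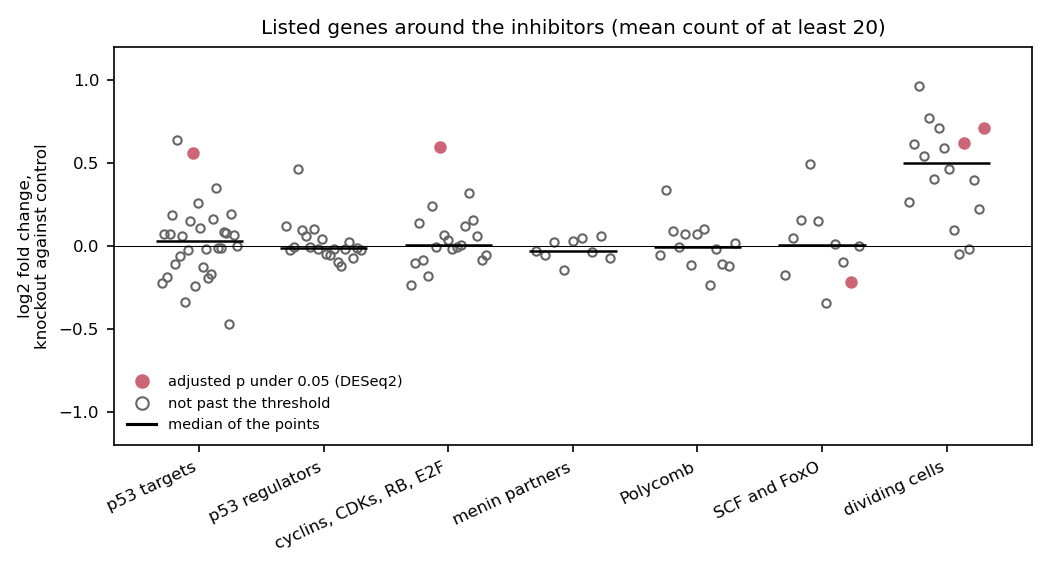
Log2 fold change of knockout against control (y axis, DESeq2) for listed genes, in 7 lists (x axis); filled points passed an adjusted p of 0.05, lines are medians of the points. The dividing-cell genes lie mostly above 0, and the other lists are centred near 0, with Fas, Cdk6 and Skp1a their only filled points.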

How the data were processed

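The authors deposited 1 table of raw counts of reads per gene, without normalization. Per the submitters' processing notes, STAR, featureCounts and the build mm10 were used; versions and the strand setting are not given in the sources used here, and the file name records trimming with cutadapt. All 55536 identifiers and symbols are identical to GENCODE M21 (GRCm38, the assembly mm10 names), which gave coordinates and exon lengths. Columns were matched to samples by group and replicate number, and 0 were left unused.

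DESeq2 1.42.0 (R 4.3.3), named in the series' design text, was fitted to all genes with at least 10 counts in total, with genotype as the only term, median-of-ratios size factors and Benjamini-Hochberg adjustment at 0.05; edgeR 4.0.16 (quasi-likelihood, TMM) was an alternative. Both were tested on simulated data. Normalized counts are counts divided by size factors. Within-group pairs of libraries differed by 40.0 to 120 times their chi-square degrees of freedom, so none was deposited as a duplicate. The 10 genes and the 20 lists were chosen with earlier results of these data known. Named by rule are all 10 genes, Klf4, from each pathway list the genes past the threshold (at most 6) or else the 2 smallest p, and the 3 genes most like Cdkn1a. Named outside this rule are the list genes E2f1, Foxm1, Foxo1, Foxo3, Pcna, Mcm2, Mcm5, Prlr, Tph1 and Tph2. Acinar, mesenchymal and glucocorticoid-induced genes are given as sums and as counts of genes that passed. The lists of other cell types are given as such counts only, apart from Gcg. Ero1b was found as Ero1lb. The fit without Cook's distance filter was added after the data were seen.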

Additional observations from a re-analysis of the deposited data

How the results depend on the processing

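None of the 10 genes passed under any of the 13 alternatives, and all 13 kept the sign of Cdkn1a, Cdkn1c, Cdkn2a, Cdkn2b, Cdkn2d, Trp53 and Mdm2. Cdkn2a could not pass in every alternative. Of the 12 other than the replicate block, 8 gave it an adjusted p, the lowest being 0.0524 in DESeq2 without control replicate 3. When single libraries were left out, log2 fold changes ran from 0.21 to 0.56 for Cdkn1a, -0.40 to -0.16 for Cdkn1c, -4.09 to -0.14 for Cdkn2a, 0.11 to 0.74 for Cdkn2b, 0.14 to 0.28 for Cdkn2d, -0.21 to -0.13 for Trp53 and -0.088 to -0.037 for Mdm2. Those of Cdkn1b (-0.046 to 0.011), Cdkn2c (-0.021 to 0.20) and Men1 (-0.041 to 0.11) changed sign; the cause was not tested. Over all genes, edgeR gave 29 calls in place of 389, and leaving out single libraries gave 153 (without knockout replicate 1) to 952 (without control replicate 3). Over all listed pathway and cell type genes, edgeR gave 10 calls in place of 31, and leaving out single libraries 15 to 42. Neighbouring genes separated in level in 3 to 5 pairs when libraries were left out. For the 48 single genes given by the naming rule, 529 of 624 results kept direction and side, 89 were weaker (21 in edgeR), 6 stronger and 0 reversed; the cause was not tested.

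Blocking on the replicate number gave 405 genes in DESeq2, the log2 fold change of Cdkn1a was 0.40 (adjusted p = 0.0645) and that of Cdkn2a -1.32. With this block Fas (adjusted p = 0.0674), Skp1a (0.104) and Socs2 (0.163) did not pass, 6 acinar genes passed in place of 0, 6 alpha in place of 4 and 0 beta in place of 1. Libraries that share a number showed no joint deviation (correlations -0.048, -0.059 and 0.010 over 15811 genes), so the numbers were not taken as pairs. Counts were lowest for Cdkn2a, at 18 to 44 reads in 5 libraries.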
